A study of Canis lupus familiaris with 36 samples.

Results

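CLBL-1 is an established cell line that grew out of the large B-cell lymphoma of a dog and serves as a model of that disease. The comparison described here concerns CLBL-1 cells that received 5 μM AS-605240 (AS) in all 6 libraries and, in 3 of them, 1 μM Ibrutinib (Ibr) as well, for an incubation time of 24 h. The 3 libraries of Ibr + AS 24 h were set directly against the 3 libraries of AS 24 h, paired by passage number (p121, p126 and p128, which are replicates 1, 2 and 3). The comparison thus gives the effect of Ibr in cells that received AS in the same incubation. The paper gives the control the DMSO concentration of the combination and does not state that of the single drugs. A difference in solvent was not tested. These 6 libraries belong to a series of 36 libraries in 12 groups of 3, with DMSO (the solvent), Ibr, AS and Ibr + AS at 24, 48 and 72 h. The cells are 1 established line, and the replicates are passages of it. P-values therefore describe the spread between libraries of this line that remains after passage is fitted, pooled over all groups, and not the spread between dogs.

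Ibrutinib binds Bruton's tyrosine kinase irreversibly. This kinase sits below the B-cell receptor, where it activates phospholipase C and through it calcium, the ERK kinases and NF-kappaB. AS inhibits phosphoinositide 3-kinase, with a preference for its gamma form. This lipid kinase also acts below the B-cell receptor and other receptors, recruits kinases such as AKT to the membrane and keeps FOXO transcription factors out of the nucleus. In B cells both routes feed growth, protein synthesis and entry into the cell cycle, and early response genes such as EGR1 are read as markers of the ERK route. The genes of both drug targets were among those whose identifiers could not be paired with a symbol and were not analysed here.

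Poly-A RNA was sequenced, and the values are reads per gene. Levels are given as CPM, the reads of a gene relative to the library's total after scaling by TMM factors, and changes as log2 fold changes (log2 FC) from an edgeR quasi-likelihood fit in which passage number was a term. A gene "passed" when its Benjamini-Hochberg adjusted p-value over all 18670 genes tested was at most 0.05, and a DEG (differentially expressed gene) also had an absolute log2 FC above 1. The 6 libraries held between 11476931 and 13408790 reads, and 3 reads in a library corresponded to between 0.232 and 0.284 CPM. Only 1068 identifiers could be paired with a symbol, so "largest" below means largest among those. Counts for gene lists likewise cover only the listed genes that could be paired. Of the B-cell markers 5 could be read (TNFRSF13C and 4 DLA class II genes), none of them was at 0, and their summed level was 4693 to 5055 CPM with AS and 5486 to 6001 CPM with Ibr + AS. The T and NK cell markers summed to at most 0.311 CPM in any of the 6 libraries. The library Ibr + AS 24 h replicate 1 stood apart: it had the largest mean distance to its own group of all 35 libraries fitted. Replicates 2 and 3 of that group ranked 9 and 8 in this distance, and the AS libraries between 22 and 30. By mean distance, replicates 1 and 3 of Ibr + AS 24 h lay nearest to the group Ibr + AS 48 h. Replicate 2 and the AS libraries lay nearest to their own group. Counts without 1 of the replicates are given below where they moved a count by more than 1.5 times.

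Adding Ibr to AS raised more genes past the limit of 1 than it lowered. HMOX1, MTSS1 and TMEM71 rose by between 3.03 and 3.44 log2 units, MYC, IRF1, IRF5 and the BAFF receptor gene TNFRSF13C rose by more than 1 log2 unit, and EGR1 and SERPINB2 fell by 2.704 and 2.40 on the log2 scale. Cell cycle genes fell in smaller steps, with 17 of 26 past the test and none of them by more than 1 log2 unit. In all, 889 genes (4.76% of those tested) were DEGs, of which 684 (3.66%) were higher and 205 (1.1%) lower with Ibr + AS. Without the limit on the fold change both directions were even: 4625 genes (24.8%) passed, 2323 higher (12.4%) and 2302 lower (12.3%). Among the genes that reached 1 CPM on average, which most list members did, the shares were 19.5% higher and 20.7% lower, and the counts for gene lists below are read beside these. The median log2 FC over all genes tested was 0.000903.

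The DEGs that rose had a median log2 FC of 1.61, and 258 of them were beyond 2. Of these 684 genes, 206 had a mean under 1 CPM over the 6 libraries and 149 had 3 reads or fewer in every library of 1 group, so that their fitted fold changes depend on a prior count. With such genes at their bounds the median was 1.4. The DEGs that fell had a median of -1.35 (-1.3 with bounds), and 29 of the 205 were beyond 2. The 3 libraries of one group lay wholly above or below the 3 of the other for 655 of the DEGs that rose and 198 of those that fell, and for 32.5% of all genes tested. The ratio had the same direction in all 3 passages for 673 and 202 of them.

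HMOX1 encodes heme oxygenase, the stress-induced enzyme that breaks down heme. Its level was 63.8, 26.3 and 24.8 CPM in replicates 1, 2 and 3 of Ibr + AS, and 4.08, 3.099 and 3.23 CPM in those of AS. The lowest Ibr + AS library was far above the highest AS library, and replicate 1 was the highest of its group. The log2 FC was 3.44 ± 0.37 (SE, adjusted p = 1.65e-07), and 3.04 without replicate 1. Most other paired genes of its list did not rise with it: of 13 genes of heme, iron and oxidative stress, 2 rose (HMOX1 and SQSTM1, the autophagy receptor p62) and 5 fell, among them TXNRD1 (thioredoxin reductase, -0.59) and SOD2 (-0.50), and the median of the list was -0.132. The shares were 15.4% higher and 38.5% lower, beside 19.5% and 20.7% of the genes that reached 1 CPM on average. The count that fell was 3 without replicate 2 and 3 without replicate 3.

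MTSS1, a scaffold that binds actin and curved membranes, was at 61.3, 53.1 and 38.8 CPM with Ibr + AS and at 6.46, 5.35 and 5.58 CPM with AS (log2 FC 3.13 ± 0.178, adjusted p = 2.24e-17). TMEM71, a transmembrane protein, was at 102.2, 104.7 and 72.3 CPM against 12.3, 9.92 and 11.8 CPM (log2 FC 3.03 ± 0.179, adjusted p = 1.6e-13). For both genes every Ibr + AS library was above every AS library by several fold, and replicate 3 was the lowest of its group. In the list of actin and adhesion genes, to which MTSS1 belongs, 6 of 21 members rose (28.6%, beside 19.5% of genes at this level) and 1 fell (4.76%), with a median of 0.0596, and with MYH9 (non-muscle myosin, 0.56) and PLEC (plectin, 0.65) among those that rose and AKAP12 the one that fell.

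**Figure D1:**
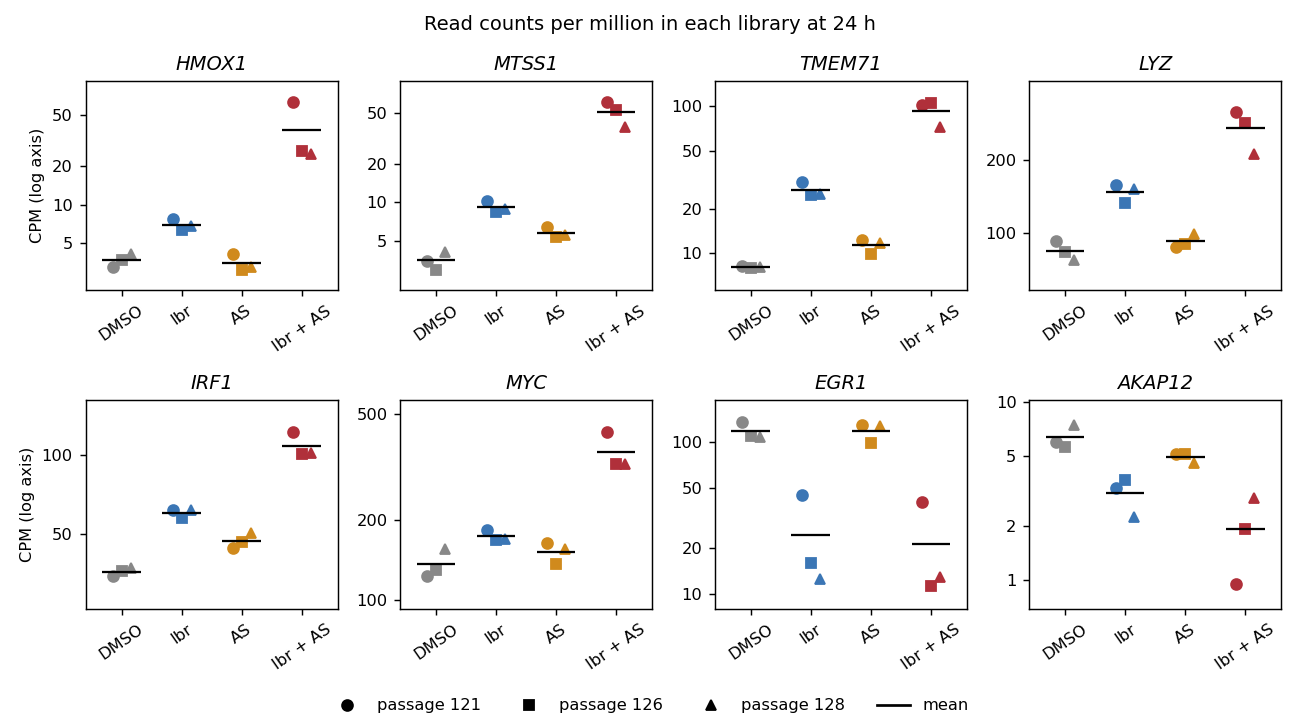
CPM on a log axis for 8 genes in the 12 libraries of 24 h, by group; the symbol gives the passage and the line the mean of 3 libraries. In HMOX1, MTSS1, TMEM71, LYZ, IRF1 and MYC the 3 Ibr + AS libraries lie above all others, while EGR1 is low in Ibr and in Ibr + AS alike.

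LYZ (lysozyme) was at 316.5, 284.7 and 210.8 CPM with Ibr + AS and at 87.5, 90.1 and 98.9 CPM with AS (log2 FC 1.55 ± 0.123, adjusted p = 2.83e-12). The lowest Ibr + AS library had more LYZ than any AS library. Of 15 lysosome genes 6 rose (40%, beside 19.5%) and 1 fell, with a median of 0.228. ARSA (arylsulfatase A, 0.76), NEU1 (neuraminidase, 0.35), CD63 (0.35) and TFEB, the transcription factor of lysosome genes (0.23), also rose, and a proton pump subunit, ATP6V1C1, fell by 0.31. Without replicate 1, 3 of the 15 rose, a share near that of all genes at this level, and without replicate 3, 0 fell. LYZ is also used as a myeloid marker. The 3 myeloid markers that could be read summed to 98.3 to 111 CPM with AS and 226.9 to 327.1 CPM with Ibr + AS, of which LYZ made up most, CSF2RB had a mean of 13.2 CPM and TREM2 was at 0 in all 6 libraries.

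Regulators of B-cell growth moved in both directions. MYC was at 425.6, 325.4 and 323.7 CPM with Ibr + AS and at 164.1, 136 and 155.1 CPM with AS (log2 FC 1.24 ± 0.0968, adjusted p = 2.02e-19). Every Ibr + AS library was above every AS library, by a wide margin. MYB, the transcription factor of immature blood cells, passed in the other direction, with 18.6, 27.03 and 24.7 CPM against 36.5, 35.6 and 35.2 CPM (log2 FC -0.60 ± 0.115, adjusted p = 1.45e-05).

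EGR1, the immediate early transcription factor, was at 40.1, 11.2 and 12.8 CPM with Ibr + AS and at 129.5, 98.6 and 127.8 CPM with AS (log2 FC -2.704 ± 0.565, adjusted p = 0.000808). The groups did not overlap. Replicate 1 kept the most EGR1 in its group and also had the most among the libraries of Ibr without AS (44.9 CPM against 15.9 and 12.4 CPM), and without replicate 1 the log2 FC was -3.21. In the list of MYC, MYB and early response regulators, 5 of 10 genes rose (50%, beside 19.5%) and 2 fell (20%, beside 20.7%), with a median of 0.525. TRIB1 (0.96), CITED2 (0.70), HIVEP2 (0.70) and the kinase gene PIM1 (0.44) rose beside MYC. Without replicate 2, 3 of the 10 rose.

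Of 30 listed genes of B-cell receptor signalling only 13 could be read, so the counts do not describe the whole route. Of these 13 genes 6 rose (46.2%, beside 19.5%) and 0 fell by edgeR (beside 20.7%), with a median of 0.184. Without replicate 3, 1 fell. TNFRSF13C, the receptor for the survival factor BAFF, was at 309.7, 265.3 and 274.8 CPM with Ibr + AS and at 127.7, 123 and 130.8 CPM with AS (log2 FC 1.16 ± 0.0984, adjusted p = 3.62e-17), with no overlap. DGKA (diacylglycerol kinase, 0.82), DEF6 (0.64), the adaptor SLA (0.58), PIM1 (0.44) and RAC2 (0.43 ± 0.0925) were the others that rose. The phosphatase gene INPP5D (log2 FC -0.10 ± 0.0966, adjusted p = 0.566), NFATC1 (0.18 ± 0.105, adjusted p = 0.226, and 0.0121 without replicate 1) and PIK3R1, the regulatory subunit of phosphoinositide 3-kinase (0.05 ± 0.0937, adjusted p = 0.82), did not pass, and their libraries overlapped between the groups. BCL2, which protects from apoptosis, did not pass either at 24 h (-0.23 ± 0.123, adjusted p = 0.197). In the same comparison at 48 and 72 h it passed as lower (-0.77 ± 0.125 and -1.03 ± 0.125). Its difference between 72 and 24 h was -0.81 ± 0.175 (adjusted p = 0.00065 by edgeR).

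On the route from phosphoinositide 3-kinase through mTOR to FOXO, 15 of 28 listed genes could be read. Of these 15 genes 6 rose (40%, beside 19.5%) and 1 fell (6.67%, beside 20.7%), and the median was 0.00575. FBXO32, a ubiquitin ligase known as a FOXO target, was at 1.80, 3.03 and 3.36 CPM with Ibr + AS and at 1.02, 0.620 and 1.48 CPM with AS (log2 FC 1.43 ± 0.318, adjusted p = 0.000174). DEPTOR, an inhibitor of mTOR, was at 2.37, 4.12 and 5.35 CPM against 1.36, 1.40 and 2.18 CPM (log2 FC 1.27 ± 0.265, adjusted p = 6.83e-05). For both genes replicate 1 was the lowest of the Ibr + AS group but was above all AS libraries. SQSTM1 (0.76), CITED2 (0.70), PRR5 (0.44) and TFEB (0.23) were the others that rose, and PPP2R1B, a phosphatase subunit, fell by 0.35. The count that fell was 0 without replicate 1 and 2 without replicate 2.

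Interferon regulatory factors rose without most of the list they belong to. IRF1 was at 122.1, 101.1 and 101.8 CPM with Ibr + AS and at 44.4, 46.7 and 50.5 CPM with AS (log2 FC 1.203 ± 0.1, adjusted p = 2.69e-19). IRF5 had a log2 FC of 1.10 ± 0.09 (adjusted p = 1.13e-19), and APOL6 one of 1.10 ± 0.118 (adjusted p = 1.12e-13). These were the 3 of 14 genes of interferon and cytokine response that rose (21.4%, beside 19.5%), a share near that of all genes at this level. IFNGR1, a chain of the interferon gamma receptor, fell by 0.62 and was the only member that fell (7.14%, beside 20.7%). Without replicate 1, 6 of the 14 rose. Of 8 antigen presentation genes 3 rose (37.5%, beside 19.5%) and 1 fell (12.5%, beside 20.7%). DLA-DOA (0.69), TAP1 (0.47) and DLA88 (0.45) rose and CANX (-0.52) fell. In this list 5 of the 8 rose without replicate 1, with DESeq2, with RLE factors or with the 12 libraries of 24 h alone. DLA-DRA was at 3965, 4208 and 4050 CPM against 3234, 3397 and 3525 CPM, without overlap, and lay close to the limit (0.27 ± 0.107, adjusted p = 0.0586). In 6 of 12 alternative fits DLA-DRA passed, and its adjusted p ranged from 0.00848 with the 12 libraries of 24 h to 0.138 without replicate 2. DLA genes are a family of similar sequences, and reads may have been shared between them. Of 15 genes of NF-kappaB and TNF signalling 2 rose (13.3%, beside 19.5%) and 4 fell (26.7%, beside 20.7%), shares near those of all genes at this level (SOD2, TNFAIP3, TBK1 and LTA, between -0.50 and -0.40), with a median of -0.0787, and 4 rose without replicate 3, with the 12 libraries of 24 h alone or with the 6 libraries alone.

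The cell cycle and DNA replication list held the most members that fell. Of 26 genes 17 fell and 1 rose (65.4% lower, beside 20.7% of genes at this level and 12.3% of all genes), and the median was -0.462. ATAD2, a chromatin ATPase of dividing cells, was at 173, 241.4 and 223.3 CPM with Ibr + AS and at 374.3, 423 and 394.5 CPM with AS (log2 FC -0.90 ± 0.0967). LMNB1 (lamin B1) was at 426.1, 460.5 and 443.1 CPM against 797, 853.6 and 803.8 CPM (-0.88 ± 0.0891, adjusted p = 6.04e-15). MCM5, a subunit of the replicative helicase, was at 259.5, 256.8 and 267.3 CPM against 450.9, 468.3 and 478.6 CPM (-0.83 ± 0.0929). In all 3 genes every Ibr + AS library was far below every AS library, and the spread within a group was small beside that step. CDK2 (-0.72) and CDK4 (-0.53), kinases of the G1 and S phases, FBXO5 (-0.72), CDC23 (-0.67) and the centromere gene CENPM (-0.63) fell as well. CCND3 (cyclin D3) was the gene that rose, with 662.2, 605.4 and 645.8 CPM against 412.4, 409.3 and 416.6 CPM (0.63 ± 0.0888, adjusted p = 4.72e-09). KIF20A, KIFC1 and RAD21 were below 0 and did not pass. In bulk RNA, a smaller share of cycling cells and less of these transcripts per cell cannot be told apart. Without replicate 1 the count that fell was again 17, and without replicates 2 and 3 it was 15 and 14. The count that rose was 2 without replicate 1 and 2 without replicate 3.

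**Figure D2:**
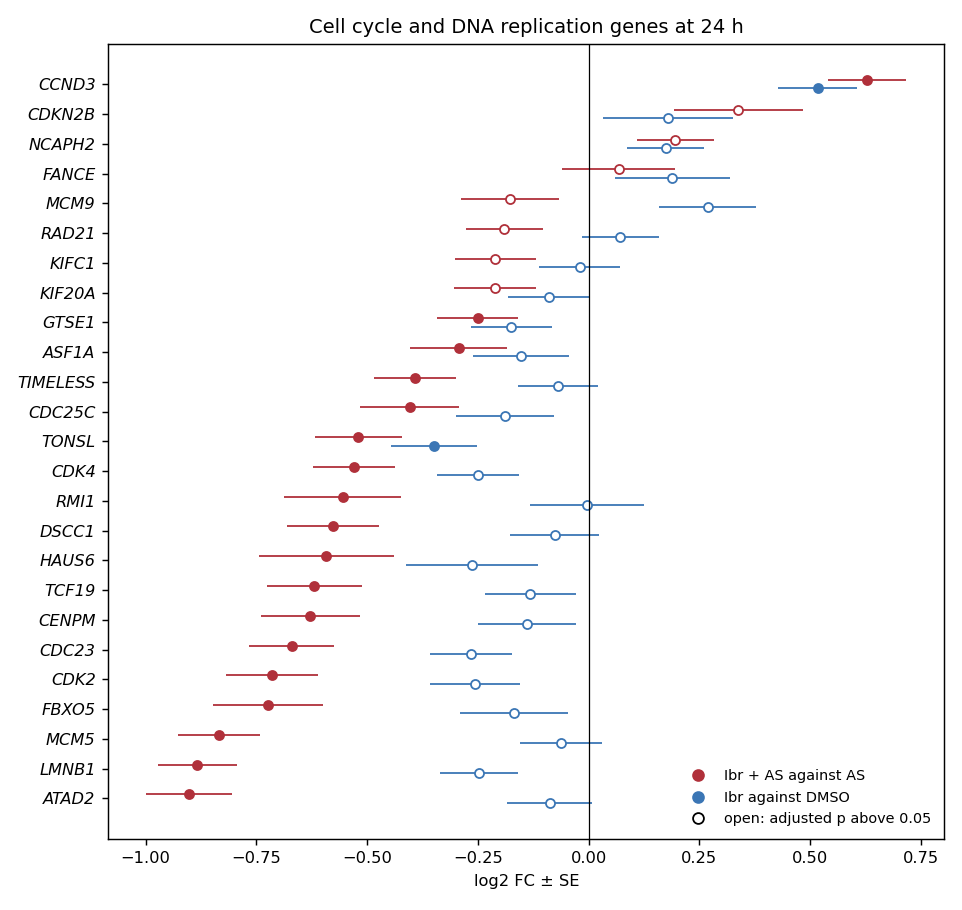
log2 FC with its SE for the 25 cell cycle and DNA replication genes that reached 1 CPM on average, for Ibr + AS against AS (red) and Ibr against DMSO (blue) at 24 h; filled points have an adjusted p of at most 0.05. From ATAD2 to GTSE1 17 red points are filled and below 0, and TONSL is the 1 blue point of that kind.

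Genes of protein synthesis split by function. Of 15 ribosomal proteins and translation factors 8 rose (53.3%, beside 19.5%) and 1 fell (6.67%, beside 20.7%), with a median of 0.27. RPL8 was at 8435, 6206 and 7075 CPM with Ibr + AS and at 5394, 4638 and 5016 CPM with AS (0.53 ± 0.103, adjusted p = 1.92e-05), EEF1D (an elongation factor subunit) rose by 0.57, and EIF4G2 fell by 0.46. Ribosomal protein genes have many processed copies in mammalian genomes, so their read counts are less certain than others. The enzymes that supply translation went the other way: of 12 genes of serine and one-carbon metabolism and tRNA charging 0 rose and 7 fell (58.3%, beside 20.7%), with a median of -0.292. XPOT, which exports tRNA from the nucleus (-0.58), the asparagine and methionine tRNA synthetase genes NARS1 (-0.52) and MARS1 (-0.47), and SHMT2, the mitochondrial serine enzyme (-0.48), were among them. ATF4, the transcription factor of this group, did not pass (0.02 ± 0.108, adjusted p = 0.997). Without replicate 3, 4 of the 12 fell.

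Of 12 ribosome biogenesis genes 5 fell (41.7%, beside 20.7%) and 1 rose (8.33%, beside 19.5%). BYSL (0.79 ± 0.0911) was the gene that rose, and PWP1 (-0.61) and PA2G4 (-0.53) were among those that fell. Of 15 genes of mitochondrial respiration and import 7 fell (46.7%, beside 20.7%) and 1 rose (6.67%, beside 19.5%), which was NDUFA6 (0.85). HSPA9, the mitochondrial HSP70 chaperone, was at 257.2, 275.1 and 249.4 CPM against 393.2, 419.6 and 381.2 CPM (-0.61 ± 0.0897, adjusted p = 1.54e-08). The mitochondrial count that fell was 3 without replicate 2 and 4 without replicate 3, with 2 that rose in both cases. Of 12 sterol and lipid genes 5 fell (41.7%, beside 20.7%) and 4 rose (33.3%, beside 19.5%), and 3 fell without any 1 of the replicates. SQLE, an enzyme of cholesterol synthesis, was close to the DEG limit at 283.1, 290.4 and 255.2 CPM against 526.8, 570.7 and 534.8 CPM (-0.98 ± 0.0983, adjusted p = 2.33e-14), SREBF2, the regulator of that pathway, fell by 0.25 (adjusted p = 0.0261, and 0.349 without replicate 1), and the acyltransferase genes AGPAT1 (0.70) and AGPAT4 (0.64) rose.

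Of 18 genes of the endoplasmic reticulum and secretion 5 fell (27.8%, beside 20.7%) and 2 rose (11.1%, beside 19.5%), one of which was WFS1 (wolframin, a membrane protein of the endoplasmic reticulum, 1.198 ± 0.0954), and 3 fell without replicate 1, without replicate 2, with RLE factors, with all 36 libraries or with the 6 libraries alone. The count that rose was 1 without replicate 1 and 4 with DESeq2. Of 23 chromatin regulators 4 fell (17.4%, beside 20.7%) and 2 rose (8.7%, beside 19.5%), so that neither share was above that of all genes at this level. The count that fell was 2 without replicate 1 and 2 without replicate 3, and the count that rose was 4 without replicate 1, 4 with RLE factors or the 12 libraries of 24 h, and 5 with DESeq2 or filterByExpr. Of 7 apoptosis and p53 target genes 1 fell (DAPK1, -0.92 ± 0.191, adjusted p = 0.000769), with 1 that rose without replicate 1, and of 6 hypoxia and glycolysis genes 1 rose (CITED2). These shares, 14.3% lower beside 20.7% and 16.7% higher beside 19.5%, were not above those of genes at this level. DAPK1, a kinase that promotes cell death, was at 166.2, 259.6 and 333.9 CPM against 486.3, 483.9 and 469.3 CPM, and the spread of the Ibr + AS group was the larger by far.

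Among DEGs that fell and could be named, SERPINB2, a protease inhibitor, was at 0.189, 0.466 and 0.559 CPM with Ibr + AS and at 1.96, 2.56 and 2.18 CPM with AS (log2 FC -2.40 ± 0.368, adjusted p = 5.34e-08). CNKSR3, a scaffold of the ERK route, was at 0.568, 1.63 and 1.12 CPM against 2.64, 2.79 and 3.92 CPM (-1.45 ± 0.295, adjusted p = 3.94e-05). Both are genes of few reads, and in both replicate 1 was lowest. AKAP12, which anchors protein kinases A and C, was at 0.946, 1.94 and 2.88 CPM against 5.10, 5.11 and 4.54 CPM (-1.34 ± 0.235). ATP8B1, a phospholipid flippase, was at 3.97, 8.00 and 12.5 CPM against 19.5, 22.2 and 21.8 CPM (-1.36 ± 0.216). SNTB1 (syntrophin, -1.17), BEND4 (-1.12), the zinc importer SLC39A4 (-1.02) and PTK2, the focal adhesion kinase (-1.01), complete the 9 that met the rule for naming. For ATP8B1, AKAP12, SNTB1, BEND4 and PTK2 the Ibr + AS level was lowest in replicate 1. Without replicate 1 the log2 FC of AKAP12, SNTB1, BEND4, SLC39A4 and PTK2 lay between -0.99 and -0.82, inside the DEG limit but past the test.

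Among DEGs that rose, FGD2, an activator of the small GTPase CDC42 (1.31 ± 0.102), KCP (1.30 ± 0.144), the surface receptor TREML2 (1.42 ± 0.165), MDGA1 (1.27 ± 0.155) and SEPTIN3 (1.65 ± 0.362) were the other genes named by the rule, and none of them overlapped between the groups. WNT7B, a secreted WNT ligand, was chosen after its values were seen. It had 0 reads in all 3 AS libraries and was at 2.46, 1.24 and 0.400 CPM with Ibr + AS, at least 5.48-fold higher.

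Of the DEGs without a symbol 2 per direction are given, those with the largest fitted log2 FC that met the other limits for naming. ENSCAFG00000019993 was at 39.7, 33.4 and 20.3 CPM with Ibr + AS and at 0.17, 0.232 and 0 CPM with AS, at least 124.7-fold higher. ENSCAFG00000019278 was at 4.45, 2.41 and 1.12 CPM against 0 in all 3 AS libraries, at least 10.6-fold higher. ENSCAFG00000013904 was at 0.378, 1.63 and 2.48 CPM against 11.7, 18.2 and 15.8 CPM (log2 FC -3.30 ± 0.299, adjusted p = 3.4e-09), and ENSCAFG00000018937 at 1.89, 3.57 and 5.59 CPM against 21.7, 20.3 and 24.0 CPM (-2.55 ± 0.242, adjusted p = 6.59e-09). These identifiers are not paired with gene names here. Bounds are set against 3 reads per AS library and cover counting error only.

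To see whether Ibr did the same without AS, the direct comparison was set beside Ibr against DMSO at 24 h, which uses 6 other libraries. Ibr without AS gave 210 DEGs (1.12%), 163 higher (0.873%) and 47 lower (0.252%). AS by itself gave 37 DEGs against DMSO (0.198%), a comparison that shares the AS libraries. Of the 684 DEGs that rose on top of AS, 597 (87.3%) had a log2 FC above 0 without AS, and 115 were DEGs there as well. The median without AS over all 684 was 0.738. Of the 205 that fell, 173 (84.4%) had a log2 FC below 0 without AS, and 17 were DEGs, with a median of -0.46 over all 205. Over the 10851 genes whose mean reached 1 CPM the share with the same sign was 75%, and Pearson's r between the 2 sets of log2 FC was 0.712 across these genes, which are not independent replicates. The DEGs were chosen for their size with AS, so a smaller median without AS is in part a product of that choice. Taken from the other side, the 210 DEGs of Ibr without AS had a median absolute log2 FC of 1.43 there and of 1.35 in the same direction with AS, and 132 of them (62.9% of these, 14.8% of the 889) were DEGs in both.

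**Figure D3:**
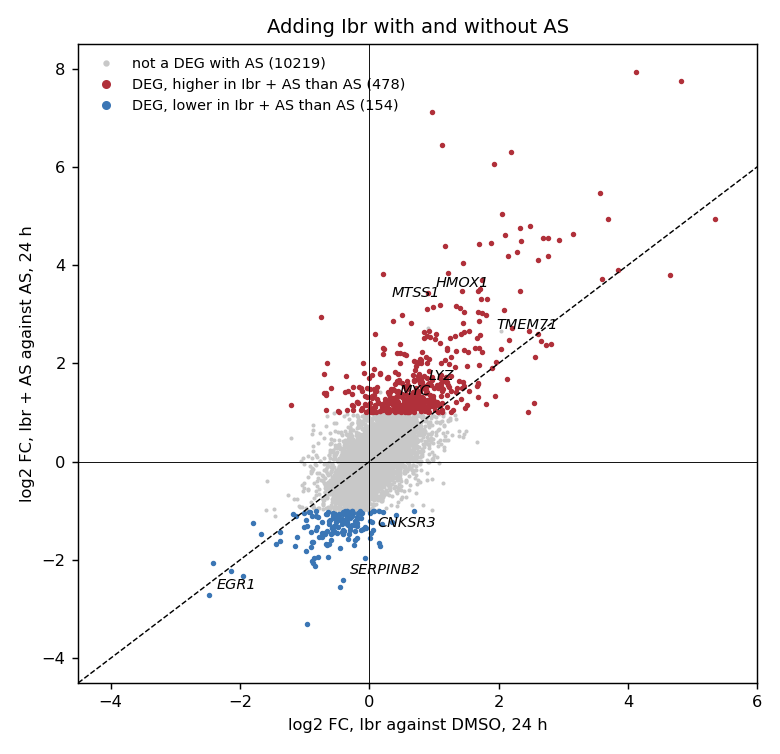
log2 FC of Ibr + AS against AS (vertical) and of Ibr against DMSO (horizontal) at 24 h for the 10851 genes that reached 1 CPM on average; the broken line marks equal change. Of the coloured DEGs 478 are higher and 154 lower with Ibr + AS, and most lie in the quadrants of equal sign, with EGR1 near the broken line and HMOX1 and SERPINB2 away from it.

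The difference between both effects was tested directly as the departure from additivity, the log2 FC with AS less the log2 FC without it. 167 genes (0.894%) passed with an absolute difference above 1, of which 109 (0.584%) were above 0 and 58 (0.311%) below. Of the DEGs that rose 91 were called as larger with AS and 2 as smaller, and of those that fell 41 were called, each of them as larger with AS. The DEGs were chosen by the same log2 FC with AS that enters this difference, so these splits are in part a product of that choice. Over all genes, without the limit of 1, 386 passed above 0 and 378 below. HMOX1 was at 7.69, 6.34 and 6.77 CPM with Ibr and at 3.26, 3.70 and 4.10 CPM with DMSO, so that the step without AS was small (0.91 ± 0.421, adjusted p = 0.226) and the difference was 2.53 ± 0.58 (adjusted p = 0.0125). For MTSS1 the difference was 1.73 ± 0.287 and for TMEM71 1.30 ± 0.262. SERPINB2 (-1.99 ± 0.454) and CNKSR3 (-1.47 ± 0.392) fell more with AS, and CNKSR3 had a log2 FC of 0.02 ± 0.253 without it. MYC (0.89 ± 0.136, adjusted p = 4.17e-06), WFS1 (0.82 ± 0.134), TNFRSF13C (0.69 ± 0.138) and MYB (-0.72 ± 0.161) passed with a difference under 1.

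EGR1 did not pass this test. Its log2 FC without AS was -2.47 ± 0.557 and the difference was -0.23 ± 0.773 (adjusted p = 1), an interval too wide to say that the effects were equal. FBXO32 (1.55 ± 0.338 without AS, difference -0.12 ± 0.471) and AKAP12 (-1.01 ± 0.208, difference -0.33 ± 0.319) did not pass it either.

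The gene lists differed in this comparison. Ibr without AS moved ribosomal and translation genes in the same way, with 9 of 15 higher and 0 lower (beside 5.35% higher and 3.78% lower of all genes), serine and tRNA charging enzymes with 6 of 12 lower, ribosome biogenesis with 5 of 12 lower and mitochondrial genes with 5 of 15 lower. In the test of the difference 0 of these 15 ribosomal, 12 serine and tRNA and 15 mitochondrial genes passed by edgeR, and 1 of 12 ribosome biogenesis genes did (BYSL, 0.47), beside 2.07% of all genes above 0 and 2.02% below. Of the 26 cell cycle genes, 1 was lower with Ibr alone (TONSL) and 6 passed as lower in the test of the difference: ATAD2 (-0.81), MCM5 (-0.77), LMNB1 (-0.64), DSCC1 (-0.50), TCF19 (-0.49) and CDK2 (-0.46). MCM5, for one, had a log2 FC of -0.06 ± 0.092 without AS and of -0.83 ± 0.0929 with it.

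**Figure D4:**
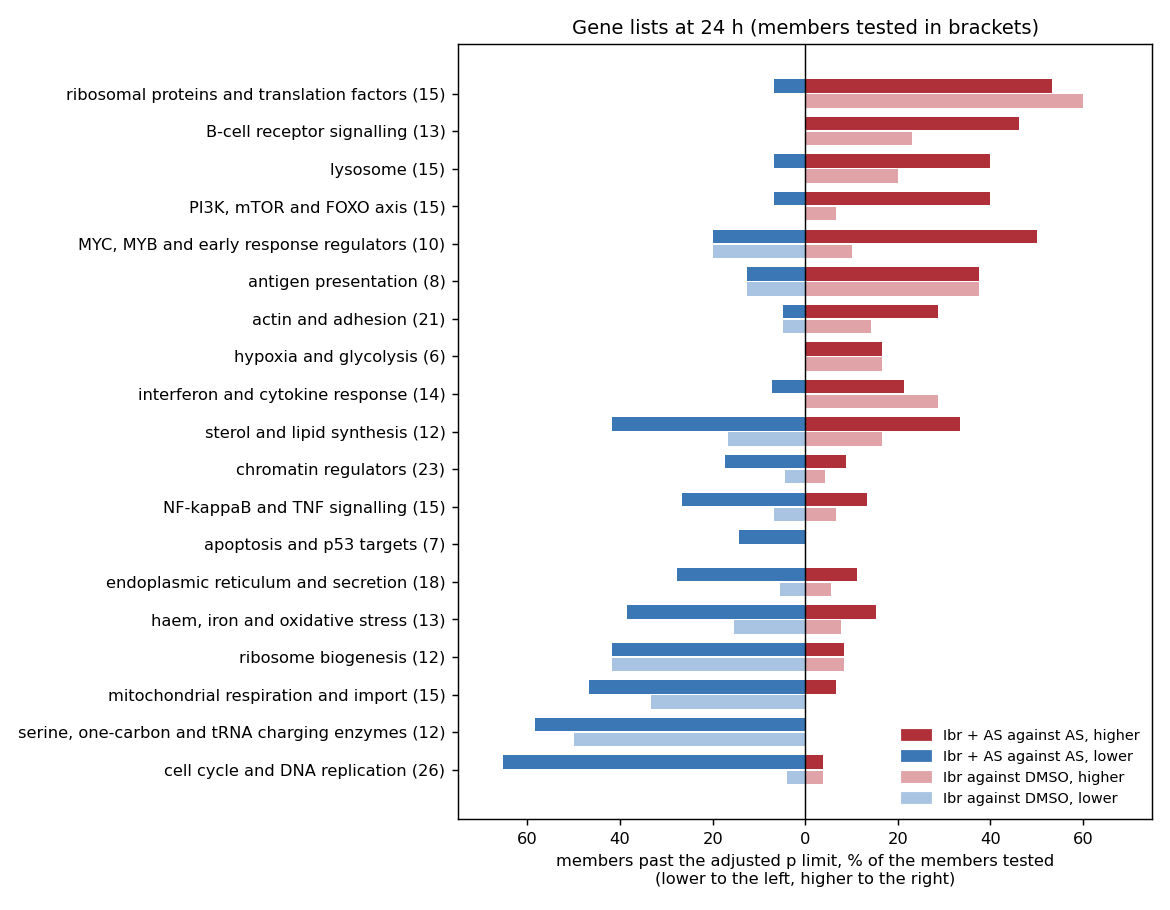
Share of the tested members of each gene list that passed, higher to the right and lower to the left, for Ibr + AS against AS (dark) and Ibr against DMSO (light) at 24 h. Ribosomal genes and the serine and tRNA enzymes have dark and light bars of like length, and the cell cycle list a long dark bar and a short light one.

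The same addition of Ibr to AS was measured at 48 and 72 h in other libraries. At 48 h few genes differed from 24 h: the difference between the times passed with an absolute value above 1 for 5 genes by edgeR (0.0268%), none with a symbol and none a DEG of 24 h, while 39, 11 and 13 genes did so without replicates 1, 2 and 3. Of the DEGs that rose at 24 h, 672 (98.2%) were above 0 at 48 h, and 431 (63%) were DEGs again, beside 3.75% of all genes called higher at 48 h. The median at 48 h over all DEGs that rose at 24 h was 1.37. Of those that fell, 133 (64.9%) were DEGs again, beside 1.61% called lower. At 72 h the difference from 24 h passed for 326 genes (1.75%), 40 above 0 (0.214%) and 286 below (1.53%). The DEGs that rose at 24 h had a median of 0.731 at 72 h, and 153 (22.4%) of them were DEGs again beside 1.4% called higher. Of these DEGs 18.4% were called as smaller at 72 h and 2 genes as larger. Of the DEGs that fell, 84 (41%) were DEGs again beside 1.82% called lower, 15 were called as smaller and 4 as larger. Because the DEGs were chosen by their size at 24 h, and these values enter the difference, smaller values at later times are in part a product of that choice.

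HMOX1 held its rise, with a log2 FC of 3.56 ± 0.346 at 48 h and 2.84 ± 0.343 at 72 h. MTSS1 stood at 3.00 and 1.34, and its difference between 72 and 24 h was -1.80 ± 0.256 (adjusted p = 4.79e-06). TMEM71 stood at 2.20 and 1.60, with a difference of -1.43 ± 0.259. EGR1 was low at all times (-2.48 ± 0.559 and -3.38 ± 0.576). SEPTIN3 and IL17REL, which rose at 24 h, had a log2 FC of -0.45 ± 0.335 and -0.77 ± 0.362 at 72 h, and CNKSR3, which fell, one of 0.39 ± 0.347. These values at 72 h did not pass (adjusted p = 0.466, 0.154 and 0.569 by edgeR), so a change of direction was not shown. P4HA2, a collagen prolyl hydroxylase induced by hypoxia, had a log2 FC of -0.06 ± 0.279 at 24 h and of -2.79 ± 0.221 at 72 h. Its mean was 1.99 CPM with Ibr + AS and 13.8 CPM with AS at 72 h, and 2.11 and 2.20 CPM at 24 h.

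**Figure D5:**
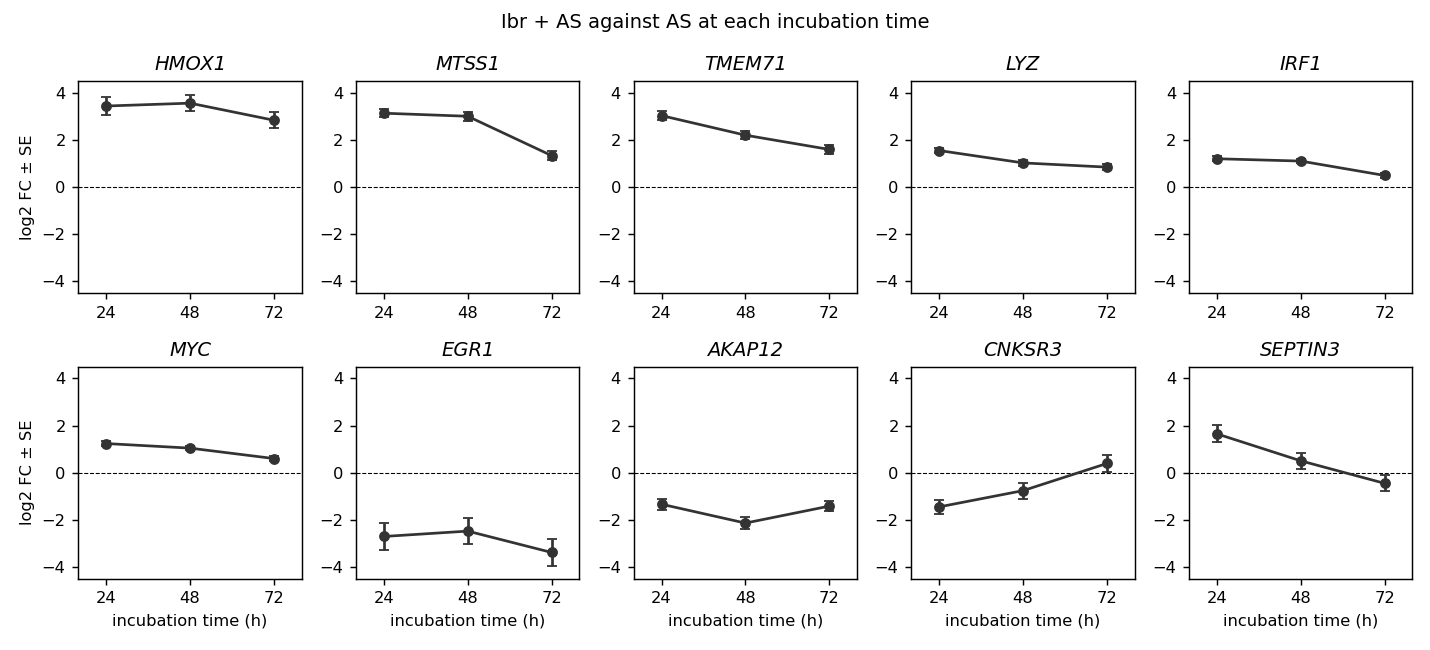
log2 FC of Ibr + AS against AS with its SE at 24, 48 and 72 h for 10 genes. HMOX1 and EGR1 stay far from 0 at all times, and MTSS1 and TMEM71 come closer to 0 at 72 h. The points of CNKSR3 and SEPTIN3 cross 0, but neither gene passed at 72 h.

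For the lists, the difference between times was not tested, and the counts at 48 and 72 h stand beside those of all genes, which were also lower at 72 h. Of the 26 cell cycle genes 19 were lower at 48 h (median -0.453, beside 14.4% of all genes lower and 13.3% higher) and 10 at 72 h (median -0.157, beside 8.25% lower and 7.24% higher). MCM5 had a log2 FC of -0.57 ± 0.0925 at 48 h and of -0.06 ± 0.0922 at 72 h, and its difference between 72 and 24 h was 0.78 ± 0.131 (adjusted p = 5.78e-06). Ribosomal and translation genes had 7 of 15 higher at 48 h and 0 at 72 h, and the serine and tRNA list had 6 of 12 lower at 48 h and 0 at 72 h. The lysosome list had 6 of 15 higher at 48 h and 5 at 72 h, and B-cell receptor signalling 6 of 13 higher at both times.

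The 3 passages were alike in direction and unlike in extent. Across genes whose mean reached 1 CPM, Pearson's r between the ratios of passage pairs was 0.778 (replicates 1 and 2), 0.699 (1 and 3) and 0.83 (2 and 3). A ratio more than 1 log2 unit below 0 was found for 520 genes in replicate 1, 159 in replicate 2 and 205 in replicate 3, and one more than 1 above 0 for 601, 527 and 498. Passages p121 and p126 at 24 h were sequenced in 1 run and p128 in another, as inferred from sample-sheet numbers. The run as a further term gave 878 DEGs. Both libraries of each passage pair shared the inferred run and passage was already a term, so this count cannot show whether the comparison depends on the run. Without replicate 1 the counts were 637 higher and 158 lower, and 671 of the 889 DEGs were called again.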

How the data were processed

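Per the labels and the study's methods, poly-A RNA of CLBL-1 cells was sequenced as single-end reads, and the authors mapped the reads with STAR 2.7.5a to CanFam3.1 and deposited raw read counts per Ensembl gene. The strand column kept is not given in the sources used here, so reads of a gene and of an antisense partner cannot be told apart. For DMSO 24 h replicate 3 the sample title says p126 but its passage label says p128, which was used.

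The model was fitted with edgeR 4.0.16 under R 4.3.3 on all genes with 2 or more reads in total (TMM factors, estimateDisp, robust glmQLFit, glmQLFTest). Passage and 12 groups were terms, and 35 libraries were fitted together, so that all groups share 1 estimate of the spread. Ibr 72 h replicate 3 was left out of the fit, as in the study. Group names come from the labels. Passage pairs the samples by the labels: residuals of Ibr + AS and AS correlated with r = 0.232, 0.313 and -0.0155 in the 3 passages, with a median of 0.0904 for the same passage and -0.0368 for others over all groups. SE is the log2 FC divided by the root of F. No 2 libraries were identical. Chi-square per degree of freedom between replicates was 8.02 to 26.9 for Ibr + AS 24 h and 3.02 to 5.78 for AS 24 h, so the shared estimate is not the spread of either group alone. P-values were adjusted over all genes tested, and the SE includes the estimated spread between libraries, while fold bounds against 3 reads cover counting error only.

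Identifiers were paired with symbols through the parts of the study's supplementary gene tables at hand (1068). The RefSeq table at hand holds 43286 genes and 0 Ensembl identifiers. The genes named are the 12 highest and 12 lowest DEGs with a symbol, a mean of at least 1 CPM and the same direction in every passage, 2 identifiers per direction, up to 4 members of each of 19 gene lists, the 3 highest and 3 lowest of each tested difference, and MYC, MYB, BCL2, HMOX1, PIK3R1, NFATC1, DSE and NHSL1. Other list members were named after their values were seen. A gene that the rule would name is not reported here. DSE (0.01 ± 0.0878) and NHSL1 (-0.77 ± 0.313, adjusted p = 0.0583) did not pass by edgeR, and NHSL1 passed in 2 of 12 alternative fits. The comparison, the gene lists and the rule were chosen with earlier results of these data known.

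The scripts were tested on simulated counts with known changes. Alternatives were DESeq2 1.42.0, RLE factors, filterByExpr, no passage term, all 36 libraries, the 12 or 6 libraries of 24 h, each replicate left out, glmTreat, no fold limit, thinned counts and the sequencing run as a term. Of cell types that the culture should not hold, melanocyte markers summed to at most 2.25 CPM in the 6 libraries, hepatocyte markers to 2.13 CPM and epithelial markers to 11.0 CPM, which ERBB3 (mean 8.80 CPM) mostly made up.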

Additional observations from a re-analysis of the deposited data

Results flagged for a closer look

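The effect of adding Ibr at 24 h differed between cells with and without AS, by the test of the difference, in 167 genes. The difference in log2 FC was 2.53 for HMOX1, 1.73 for MTSS1, 1.30 for TMEM71, -1.99 for SERPINB2, -1.47 for CNKSR3 and -1.26 for SMC1B, a meiotic cohesin subunit. SMC1B was at 1.14, 1.63 and 1.76 CPM with Ibr + AS and at 2.64, 2.79 and 2.703 CPM with AS, and it had a log2 FC of 0.45 ± 0.255 without AS. Its log2 FC with AS was -0.82 ± 0.276 (adjusted p = 0.0184 by edgeR), with an adjusted p of up to 0.0999 over the alternatives.

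The effect of adding Ibr to AS differed between 48 and 24 h in 5 genes and between 72 and 24 h in 326 genes. The difference between 72 and 24 h was 1.84 for CNKSR3, -2.72 for P4HA2, -2.10 for SEPTIN3 and -2.02 for IL17REL. These are genes of few reads, with means between 1.27 and 2.24 CPM over the 6 libraries of 24 h. The groups hold 3 libraries each, and single libraries were therefore not tested as outliers.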

How the results depend on the processing

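The count of DEGs for Ibr + AS against AS at 24 h lay between 803 with DESeq2 and 912 with the 12 libraries of 24 h alone, apart from the fits with other limits, filterByExpr (798) and the fits without 1 replicate (795 to 851). In none of these settings did a DEG shared with the reported fit change direction. With glmTreat, which tests against the fold limit itself, 229 genes were called (202 higher, 27 lower), beside 16 for Ibr against DMSO, 0 for the departure from additivity, 0 and 27 for the differences at 48 and 72 h, and 1 for AS against DMSO. Without a fold limit the counts were 4625 (2323 higher, 2302 lower), 1704, 764, 19, 1260 and 471. The departure from additivity, with 167 genes by edgeR and 165 by DESeq2, thus had no gene left under glmTreat, although 2577 genes had an unadjusted p under 0.05. The count for 48 h less 24 h was 9 with DESeq2, 2 without the replicate block (946 genes had an unadjusted p under 0.05) and 11 to 39 without 1 replicate. Without the replicate block the comparison at 24 h had 890 DEGs and the departure from additivity 136, and no other count moved by over 1.5 times. The share of DEGs that had the same sign with and without AS, 86.6%, was 89.3% with DESeq2 and 88.8% with filterByExpr. The cause of these shifts was not tested. The differences at 48 and 72 h could not be fitted with the 24 h libraries alone. Of 403 values of 31 named DEGs under alternatives, 33 no longer met the DEG limits and 0 changed sign. EGR1, MYC, IRF1, IRF5 and TNFRSF13C were among those not called by glmTreat. For the gene lists, 53 counts of members that rose or fell moved by over 1.5 times under an alternative. DESeq2 gave no adjusted p for 5430 genes. Genes under 1 CPM rest on few reads, and their fold changes are the least certain.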

Other observations

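NAB2, a corepressor that binds EGR1, fell with Ibr in the absence of AS (log2 FC -0.91) and its difference between both effects was 0.71, so that the log2 FC with AS was -0.19. SQSTM1 (0.70), PRR5 (0.61) and DEF6 (0.55) were among the paired genes whose rise was larger with AS, and IFNGR1 (-0.41) among those whose fall was. PLXNB2, a semaphorin receptor, rose with AS (1.01 ± 0.143) and without it (1.27 ± 0.155). At 72 h its log2 FC of Ibr + AS against AS was -0.39 ± 0.156, which did not pass (adjusted p = 0.0791 by edgeR), and the difference from 24 h was -1.41 ± 0.211. These genes were chosen after their values were seen.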
